A study of Mus musculus with 6 samples.

Results

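The genes described here are the chaperones, folding enzymes, degradation factors and stress sensors of the endoplasmic reticulum (ER), the compartment in which secreted proteins are folded. They are a list of 50 symbols, all of which were found among the 36333 rows of the deposited count table. RNA had been sequenced from the pancreas of wild-type mice, with 3 samples after intraperitoneal saline and 3 after intraperitoneal cerulein, and the labels give neither strain, age nor sex. Cerulein, a peptide that acts like the gut hormone cholecystokinin and drives acinar cells to secrete beyond their normal rate, was injected 10 times at 200 µg/kg/h in 200 µl to induce acute pancreatitis, and the tissue was taken when the injections were complete. Whether each sample is 1 animal is not stated, so the tests measure the spread between these samples. The question asked here is how this gene set stood at the end of the injections, and how its sensors, folding enzymes and degradation genes compared.

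Acinar cells make and secrete more protein than almost any other cell, and their ER is correspondingly large. Unfolded protein in the ER lumen activates 3 sensors, IRE1 (Ern1), PERK (Eif2ak3) and ATF6, which together drive the unfolded protein response. IRE1 splices the Xbp1 mRNA into the form that encodes an active transcription factor, PERK slows translation and favours synthesis of ATF4, and ATF6 is cut in the Golgi to release a transcription factor. Proteins that do not fold are passed to ER-associated degradation (ERAD), in which they are moved to the cytosol, marked with ubiquitin and destroyed by the proteasome. Counts per gene cannot separate spliced from unspliced Xbp1, and they hold nothing on the cleavage or phosphorylation of the sensors.

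Total counts lay between 5335117 and 7610775 per library. Levels are given as CPM, a gene's count over the library size after TMM scaling, in the usual unit of counts-per-million, and values for a group are listed in the order of replicates 1, 2 and 3. The defining acinar markers were abundant in every library, at summed levels of 237033 to 506860 CPM in saline and 129632 to 154497 CPM in cerulein. Of these 10 markers 9 fell, and the transcription factor Ptf1a rose, by 1.38 ± 0.24 (SE) on the log2 scale. Digestive enzyme genes took 54.9% ± 7.88 (SD, n = 3) of the counts in saline and 30.9% ± 2.01 in cerulein, and saline replicate 1 stood apart with 45.8%. Summed neutrophil markers were also high in that library, at 220 CPM, where the other saline libraries had 19.1 and 44.2 CPM and the cerulein libraries 50.2 to 121 CPM. Of the 10 neutrophil markers 7 could be tested and 1 rose. Ductal markers rose for 9 of 10 and fell for 1, with summed levels of 547 to 705 CPM in saline and 11873 to 13201 CPM in cerulein. Of 10 monocyte and macrophage markers 4 rose, with 207 to 437 CPM in saline and 564 to 683 CPM in cerulein. Of the markers of lymphocytes and plasma cells, another secretory cell type, 8 of 10 were tested and none was called, with summed levels of 10.8 to 83.6 CPM in saline and 44.5 to 90.7 CPM in cerulein and the B cell marker Ms4a1 at 0 in every library. Islet markers, 9 of 10 tested, fell for 3 (33.3%) and rose for 0, where 27.1% of all genes tested fell. Their summed levels were 831, 1945 and 1935 CPM in saline and 1592, 1693 and 1021 CPM in cerulein. The part of these shifts in the results below was not tested, and in bulk tissue fewer acinar cells cannot be told apart from less RNA per cell.

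Most of the ER genes were lower after cerulein. Of the 50 members, all of which passed the filter on low counts, 30 fell, 7 rose and 13 did not pass the threshold of an adjusted p under 0.05 (edgeR). Over all 12441 genes tested 55.8% passed in either direction, 27.1% as lower and 28.7% as higher, so the share of members that fell was above the background and the share that rose below it. The median log2 fold change, cerulein over saline, was -0.84 for the members, against -0.00091 for all genes tested, and 19 members were called lower by at least 2-fold and 1 higher, where the background is 17.7% and 18.3%. The groups did not overlap for 38 members, where the background is 63.0%. Without saline replicate 1, 33 members fell and 6 rose, where 28.1% of all genes were called lower and 29.2% higher. Without cerulein replicate 3, 29 members fell and 4 rose, where 22.8% of all genes were called lower and 24.6% higher. The counts moved with the scaling. With library size alone, which moves the median of all genes by 0.56 on the log2 scale, 17 members (34.0%) fell and 13 (26.0%) rose, where 11.6% of all genes were called lower and 41.6% higher. The member median then lay at -0.79 relative to that of all genes.

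**Figure D1:**
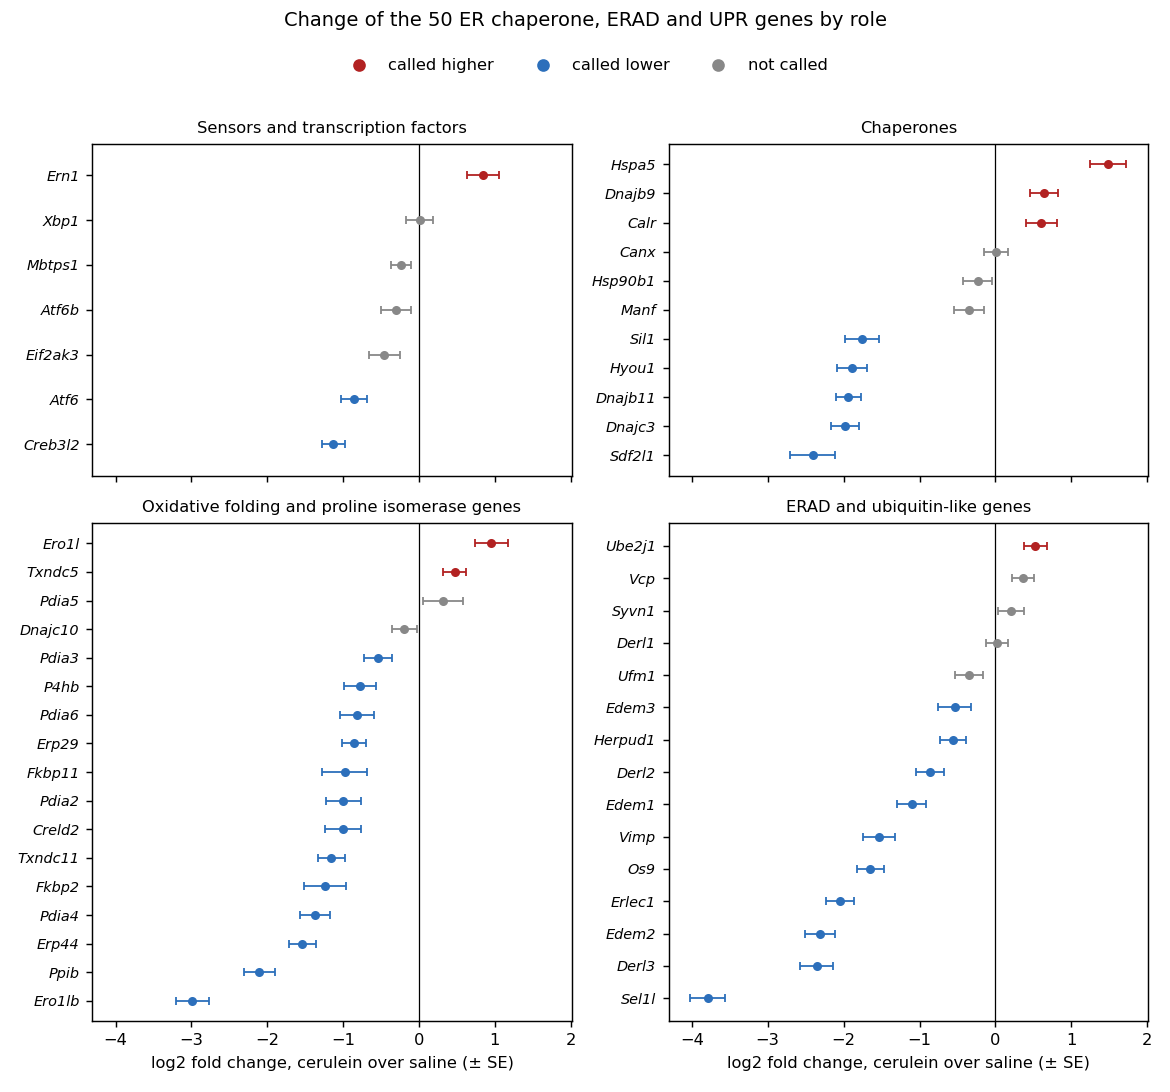
Log2 fold change (x axis, cerulein over saline, with SE) of each of the 50 members (y axis) in 4 groups by role, coloured by the edgeR call. Oxidative folding and ERAD genes lie mostly left of 0, from -3.79 for Sel1l upward, while Hspa5 stands highest at 1.49.

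The roles differed in the size and mix of their changes. Among 7 sensors and transcription factors 1 (14.3%) rose and 2 (28.6%) fell, with a median log2 fold change of -0.30. Of 11 chaperones 3 (27.3%) rose and 5 (45.5%) fell (median -0.35). Of 17 oxidative folding and proline isomerase genes 2 (11.8%) rose and 13 (76.5%) fell (median -0.98). Of 15 ERAD and ubiquitin-like genes 1 (6.67%) rose and 10 (66.7%) fell (median -0.86). Over all genes 28.7% rose and 27.1% fell. The share of sensors that fell and the share of chaperones that rose were near these values. No test between these groups was made. Summed over each group, the ERAD genes stood at 3755, 4595 and 4487 CPM in saline and 1382, 1482 and 1664 CPM in cerulein. The oxidative folding genes summed to 4765, 6775 and 7739 CPM in saline and 2980, 3283 and 3222 CPM in cerulein. In both groups every saline library lay above every cerulein library. The chaperones summed to 1499, 2351 and 2049 CPM in saline and 2000, 1882 and 2288 CPM in cerulein. The sensors and transcription factors summed to 1219, 1370 and 1198 CPM in saline and 1008, 1154 and 1268 CPM in cerulein. In both of these the libraries of the groups overlapped. Single genes carried much of some sums. By group means, Hspa5 made up 350 of 1966 CPM of the chaperones in saline and 982 of 2057 CPM in cerulein. Sel1l made up 1790 of 4279 CPM of the ERAD genes in saline and 129 of 1509 CPM in cerulein. Pdia2 made up 3019 of 6426 CPM of the oxidative folding genes in saline and 1511 of 3162 CPM in cerulein. With library size alone, and so against the shares of all genes just given for that scaling, 5 oxidative folding genes fell in place of 13, 4 ERAD genes rose in place of 1, and among the sensors 0 fell and 2 rose. The few rises changed in number when 1 library was left out. Without cerulein replicate 3 they numbered 1 among the chaperones and 1 among the oxidative folding genes. Among the ERAD genes they numbered 0 without saline replicate 3 and 2 without saline replicate 2. In these 3 fits 24.6%, 24.2% and 27.5% of all genes were called higher, against 28.7% with all libraries. The share of all genes was thus lower in each, also without saline replicate 2, where more ERAD genes rose.

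Levels per kilobase of exon allow a rough comparison between genes. On this scale the pancreas-enriched disulfide isomerase Pdia2 was the most abundant member in both groups. It stood at 1754 ± 453 CPM per kilobase in saline and 878 ± 44.1 in cerulein (SD, n = 3). P4hb, the classical protein disulfide isomerase, was second at 573 ± 133 and 334 ± 16.1. Xbp1 ranked 3 in both groups, at 244 ± 15.2 and 246 ± 26.6. Sel1l ranked 4 of 50 in saline and 25 in cerulein, whereas Hspa5 ranked 10 in saline and 4 in cerulein. The SDs of neighbouring genes left no clear order in places, for example between Xbp1 and Sel1l in saline, at 209 ± 19.9 for the latter, and between Xbp1 and Hspa5 in cerulein, at 232 ± 35.0 for Hspa5. Exon lengths came from GENCODE M21, which may not be the annotation the authors counted on. They merge the exons of all transcripts listed for a gene, whether or not the pancreas uses them. The ranks are therefore approximate.

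The ER stress response element (ERSE) is the promoter sequence through which ATF6 and XBP1, with the factor NF-Y, are known to act on chaperone genes. Promoter windows from 250 bases before to 50 after a RefSeq start (GRCm38.p6) were available for 43 of the 50 members. The exact ERSE, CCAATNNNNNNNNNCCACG on either strand, was in a window of 10 of these (23.3%) and of 37 of 27025 genes with a window in all (0.137%). The members were listed as genes of this response, so the difference between these shares is no finding. Each site is shown with 10 bases on either side, read 5′ to 3′ on the strand that carries it, with its ends CCAAT and CCACG in capitals, because members that carry it were called in both directions. They run from the highest to the lowest log2 fold change.
Hspa5: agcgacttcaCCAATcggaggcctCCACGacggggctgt
Calr: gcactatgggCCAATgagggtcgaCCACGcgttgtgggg
Syvn1: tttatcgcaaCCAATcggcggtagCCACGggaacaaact
Canx: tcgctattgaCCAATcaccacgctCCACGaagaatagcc
Hsp90b1 far site: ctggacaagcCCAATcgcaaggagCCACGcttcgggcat
Hsp90b1 near site: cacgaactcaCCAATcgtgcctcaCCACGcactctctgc
Pdia6: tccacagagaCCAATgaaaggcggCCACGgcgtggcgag
Creld2: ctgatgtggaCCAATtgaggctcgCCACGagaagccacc
Dnajc3: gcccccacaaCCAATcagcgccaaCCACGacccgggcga
Derl3: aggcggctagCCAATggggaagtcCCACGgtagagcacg
Ero1lb: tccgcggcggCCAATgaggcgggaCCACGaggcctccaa

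On GRCm38.p6 the Hspa5 stretch is chr2:34772015-34772053, that of Canx chr11:50325790-50325828, that of Syvn1 chr19:6046522-6046560, that of Pdia6 chr12:17266481-17266519 and that of Dnajc3 chr14:118937817-118937855, each on the strand of its gene. Hsp90b1 has its far site at chr10:86705628-86705666 on the gene's strand and its near site at chr10:86705523-86705561 on the other. The stretches of Calr (chr8:84847065-84847103), Creld2 (chr15:88819510-88819548), Derl3 (chr10:75893232-75893270) and Ero1lb (chr13:12565672-12565710) are on the strand opposite to the gene. Genes of the plus strand are Hspa5, Syvn1, Pdia6, Dnajc3, Creld2, Derl3 and Ero1lb. Calr, Canx and Hsp90b1 are on the minus strand. The first base of the site lay between 44 bases (Syvn1) and 212 bases (the far site of Hsp90b1) before the start. The start used for Ero1lb lies downstream of the RefSeq gene start.

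Of the 10 members with this element, 2 rose, 5 fell and 3 did not pass, with a median log2 fold change of -0.52 and a range from -2.99 for Ero1lb to 1.49 for Hspa5. Of the 33 members with a window and no exact match, 5 rose, 20 fell and 8 did not pass, with a median of -0.78. The background shares are 28.7% for a rise and 27.1% for a fall. With and without the element, the share of members that rose was below this background and the share that fell above it. The 2 related elements were rarer among members. ERSE-II, which is ATTGG and CCACG with 1 base between them on either strand, was found for 2 members, Herpud1 and Dnajb11, and for 0.0444% of all genes. The core of the unfolded protein response element, TGACGTGG on either strand, was found for 4 members, Txndc5, Txndc11, Vcp and Ube2j1, and for 0.714% of all genes. Of these last, Txndc5 and Ube2j1 rose, Txndc11 fell and Vcp had an adjusted p of 0.0527 (edgeR). The starts used for Txndc5 and Txndc11 lie downstream of the RefSeq gene starts. No member held more than 1 of these 3 motifs. A match is a description of the letters and not a site shown to be bound.

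The ERSE-II of Herpud1 (chr8:94386367-94386397, plus strand) and the TGACGTGG cores of Ube2j1 (chr4:33031302-33031329, on the minus strand opposite to the gene) and Vcp (chr4:43000604-43000631, on the minus strand of the gene) are shown in the same way, with the motif letters in capitals, for comparison with the ERSE sites.
Herpud1: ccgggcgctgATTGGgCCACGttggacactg
Ube2j1: gaagtcggccTGACGTGGcgggcgcttc
Vcp: tgcggccaatTGACGTGGcgttactagg

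**Figure D2:**
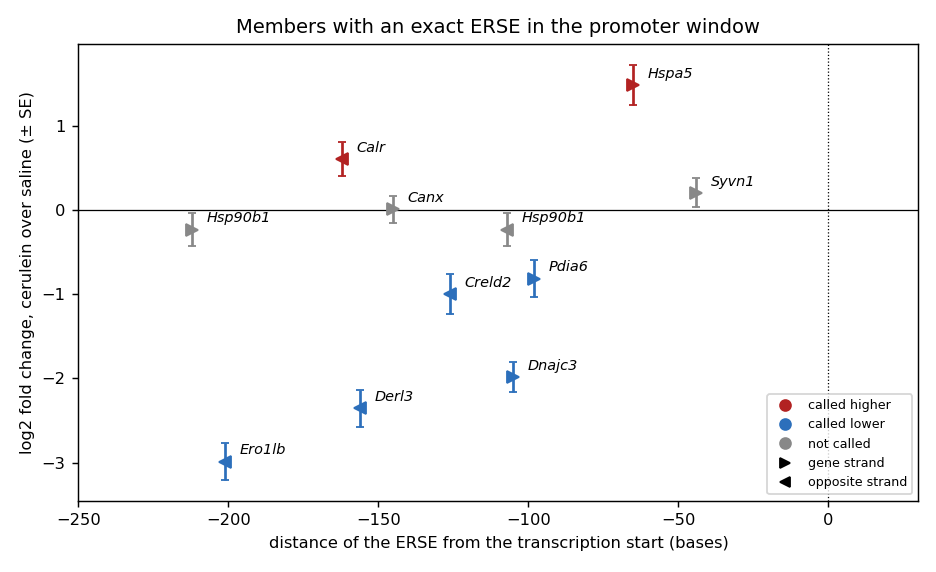
Log2 fold change with SE (y axis) of the members with an exact ERSE against the distance of the site's first base from the transcription start in bases (x axis), with the marker pointing right for a site on the gene's strand and left for the opposite strand. The values run from -2.99 (Ero1lb) to 1.49 (Hspa5) and lie on both sides of 0, and Hsp90b1 appears once for each of its sites.

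For the most raised member, a lowered member with the same element and the most lowered member, the 150 bases before the start are given on the gene's strand, with the ends of the ERSE in capitals. They are Hspa5 (chr2:34771940-34772089, plus strand), Dnajc3 (chr14:118937782-118937931, plus strand) and Sel1l (chr12:91849158-91849307, minus strand), all from RefSeq, GRCm38.p6. Sel1l has no exact match to any of the motifs in its window.
Hspa5: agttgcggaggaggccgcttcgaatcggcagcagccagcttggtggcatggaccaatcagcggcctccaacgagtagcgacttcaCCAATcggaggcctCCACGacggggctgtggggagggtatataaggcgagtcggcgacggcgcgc
Dnajc3: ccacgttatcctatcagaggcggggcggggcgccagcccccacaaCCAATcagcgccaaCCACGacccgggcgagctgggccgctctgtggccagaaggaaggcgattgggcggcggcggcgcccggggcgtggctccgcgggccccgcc
Sel1l: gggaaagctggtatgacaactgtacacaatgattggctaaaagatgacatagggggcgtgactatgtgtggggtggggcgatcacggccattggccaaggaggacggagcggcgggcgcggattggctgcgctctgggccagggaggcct

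The 3 sensors differed in direction. Ern1, which encodes IRE1, was at 36.2, 35.6 and 21.6 CPM in saline and 53.5, 46.2 and 69.2 CPM in cerulein. All cerulein libraries lay above the saline libraries, and its log2 fold change was 0.84 ± 0.21 (SE), a rise (adjusted p = 0.00464, edgeR). Atf6 went the other way, with 149, 143 and 136 CPM in saline and 66.9, 71.4 and 98.1 CPM in cerulein, again without overlap, and fell by 0.86 ± 0.17 (adjusted p = 9.20e-04, edgeR). Its call was lost with library size alone, at -0.29. Eif2ak3, which encodes PERK, was at 155, 218 and 134 CPM in saline and 104, 122 and 145 CPM in cerulein. Its groups overlapped through cerulein replicate 3, and the log2 fold change of -0.45 ± 0.20 did not pass (adjusted p = 0.0717, edgeR), but it did when saline replicate 1 (-0.56) or saline replicate 3 (-0.62) was left out, under upper-quartile scaling (-0.65) and with the total outside digestive enzyme genes as library size (-0.49). The count ratio of Ern1 to Atf6, which needs no scaling between libraries, was 0.243, 0.249 and 0.158 in the saline libraries and 0.800, 0.648 and 0.705 in the cerulein libraries.

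Xbp1, the transcription factor downstream of IRE1, was among the most abundant members in both groups, at 754, 849 and 779 CPM in saline and 701, 828 and 866 CPM in cerulein. The groups overlapped, with a log2 fold change of 0.01 ± 0.18, and it passed only with library size alone, at 0.59. Atf6b, the paralogue of Atf6, was at 13.4, 12.8 and 12.9 CPM in saline and 9.35, 11.7 and 10.7 CPM in cerulein (-0.30 ± 0.20), and Mbtps1, the site-1 protease that cuts ATF6, at 63.5, 62.6 and 63.8 CPM in saline and 50.9, 55.0 and 55.2 CPM in cerulein (-0.24 ± 0.13). In both genes the saline libraries all lay above the cerulein libraries, yet neither passed the threshold, except with upper-quartile factors. Creb3l2, an ER-anchored transcription factor related to ATF6, was at 48.3, 48.4 and 49.6 CPM in saline and 22.6, 20.0 and 24.1 CPM in cerulein and fell by 1.13 ± 0.15, the largest change among these 7 genes (adjusted p = 3.53e-05, edgeR). With library size alone it was at -0.56 and lost its call.

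Hspa5 encodes BiP, the main ER chaperone, which also holds the sensors inactive. It was at 246, 460 and 345 CPM in saline and 981, 835 and 1131 CPM in cerulein, and every cerulein library lay above the highest saline library. Its rise of 1.49 ± 0.24 on the log2 scale was the largest of any member (adjusted p = 1.54e-04, edgeR) and kept its call under all 15 alternatives. The gene (chr2:34772090-34776529) carries a limit. Of its exonic bases, 60.3% lie within the RefSeq span of Rabepk, taken with its introns and on either strand. Rabepk itself had 21 to 53 counts per library, and reads that fall in an overlap may have been left uncounted. The part of this overlap in the level of Hspa5 was not tested.

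Most of the listed cofactors of BiP were lower after cerulein. Hyou1, a nucleotide exchange factor for BiP, was at 190, 315 and 244 CPM in saline and 69.1, 59.9 and 72.4 CPM in cerulein and fell by 1.89 ± 0.20. Sil1, the other exchange factor on the list, was at 25.7, 42.1 and 44.7 CPM in saline and 9.23, 12.1 and 11.7 CPM in cerulein and fell by 1.75 ± 0.23. Dnajc3, a J-domain co-chaperone that stimulates BiP and was first known as an inhibitor of PERK, was at 266, 348 and 372 CPM in saline and 80.1, 77.8 and 91.0 CPM in cerulein and fell by 1.98 ± 0.18. In all of these the groups were far apart. Dnajb11, a co-chaperone that hands unfolded chains to BiP, was at 111, 155 and 142 CPM in saline and 34.0, 38.3 and 34.1 CPM in cerulein and fell by 1.94 ± 0.17. Sdf2l1, a partner of Dnajb11, was at 44.2, 104 and 93.6 CPM in saline and 13.4, 16.3 and 15.5 CPM in cerulein and fell by 2.41 ± 0.30, the largest fall among the chaperones, with saline replicate 1 well below the other saline libraries. For Dnajb11 38.1% of exonic bases are shared with the span of Gm30505. As count ratios within a library, Hspa5 to Hyou1 was 1.30, 1.46 and 1.42 in the saline libraries and 14.2, 13.9 and 15.6 in the cerulein libraries. Hspa5 to Dnajc3 was 0.927, 1.32 and 0.927 in the saline libraries and 12.2, 10.7 and 12.4 in the cerulein libraries.

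Dnajb9, a J-domain protein that returns BiP to IRE1 and serves ERAD, was the one co-chaperone on the list that rose. It was at 46.5, 71.4 and 63.5 CPM in saline and 80.4, 89.3 and 111 CPM in cerulein, a rise of 0.64 ± 0.19 (adjusted p = 0.0108, edgeR), and lost its call without cerulein replicate 3, at 0.51. Its count ratio to Dnajb11 was 0.417, 0.461 and 0.447 in the saline libraries and 2.37, 2.33 and 3.26 in the cerulein libraries. Among the lectin chaperones of the calnexin cycle, the soluble Calr was at 149, 249 and 224 CPM in saline and 305, 333 and 308 CPM in cerulein and rose by 0.61 ± 0.20 (adjusted p = 0.0202, edgeR), whereas the membrane-bound Canx was at 131, 161 and 147 CPM in saline and 134, 144 and 162 CPM in cerulein, with a log2 fold change of 0.01 ± 0.16. Calr lost its call with upper-quartile factors (0.41) and without saline replicate 1 (0.38), saline replicate 3 (0.64), cerulein replicate 2 (0.57) or cerulein replicate 3 (0.63). Hsp90b1, the ER form of the HSP90 chaperones, was at 215, 320 and 255 CPM in saline and 224, 191 and 257 CPM in cerulein with overlapping groups (-0.23 ± 0.19). Manf, a BiP cofactor that can be secreted, had a log2 fold change of -0.35 ± 0.20 and passed without saline replicate 1, at -0.59, and with upper-quartile factors.

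**Figure D3:**
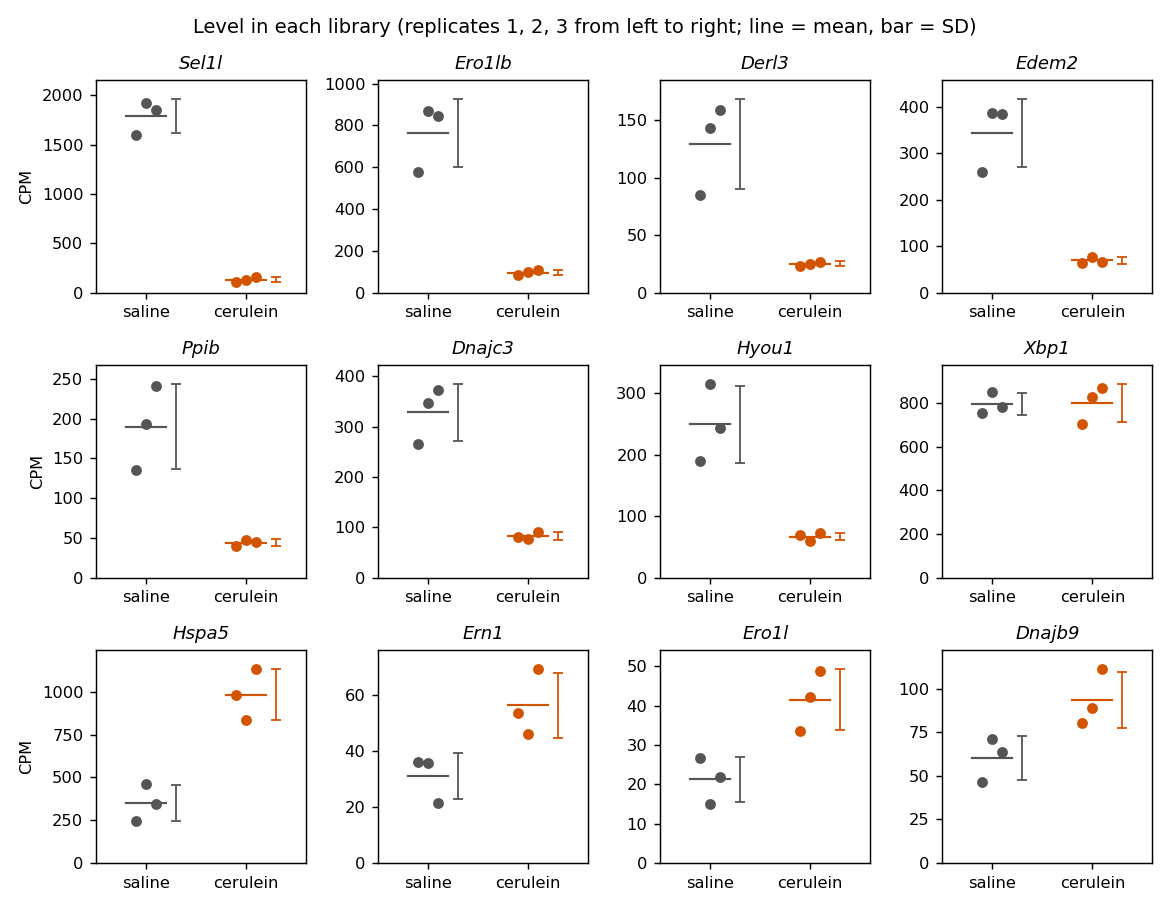
CPM (y axis, from 0) of 12 members in each saline and cerulein library, with the mean as a line and the SD (n = 3) as a bar. For Sel1l, Ero1lb, Derl3, Edem2, Ppib, Dnajc3 and Hyou1 all cerulein libraries lie below the saline libraries, for Hspa5, Ern1, Ero1l and Dnajb9 all lie above, and for Xbp1 the groups overlap.

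Oxidative folding depends on oxidases of the ERO1 family, which recharge the protein disulfide isomerases. The 2 family members moved in opposite directions. Ero1lb, the form enriched in pancreas, was at 578, 871 and 844 CPM in saline and 82.4, 98.6 and 108 CPM in cerulein, a 7.94-fold lower fitted level and a log2 change of -2.99 ± 0.22 (adjusted p = 1.85e-07, edgeR). Ero1l, the more widely expressed form, was at 26.7, 15.1 and 21.9 CPM in saline and 33.5, 42.1 and 48.9 CPM in cerulein and rose by 0.95 ± 0.22 (adjusted p = 0.00216, edgeR). The groups did not overlap for either gene, and both calls held under all 15 alternatives. The count ratio of Ero1lb to Ero1l was 21.7, 57.7 and 38.6 in the saline libraries and 2.46, 2.34 and 2.20 in the cerulein libraries, and the saline libraries differed among themselves more than the cerulein libraries.

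The disulfide isomerases were mostly lower. P4hb was at 1237, 1690 and 1993 CPM in saline and 906, 997 and 965 CPM in cerulein and fell by 0.78 ± 0.22. Pdia2 fell by 0.998 ± 0.23, from 3019 ± 780 to 1511 ± 75.9 CPM (SD, n = 3). Pdia4, which has an extra thioredoxin-like domain, was at 41.6, 65.1 and 53.7 CPM in saline and 24.7, 18.3 and 18.8 CPM in cerulein and fell by 1.37 ± 0.20. Erp44, which retains ERO1 oxidases and unassembled cargo in the early secretory pathway, was at 37.5, 48.9 and 53.0 CPM in saline and 16.0, 15.3 and 16.4 CPM in cerulein and fell by 1.54 ± 0.17. These groups were separate in each case. The other called log2 fold changes were -1.16 ± 0.18 for Txndc11, -0.999 ± 0.23 for Creld2, -0.86 ± 0.16 for Erp29, -0.82 ± 0.22 for Pdia6 and -0.54 ± 0.19 for Pdia3, and the groups of Pdia6 and Pdia3 overlapped. For Pdia3, the partner of calnexin and calreticulin, 13.7% of exonic bases are shared with the span of Catsper2. Pdia3 lost its call without saline replicate 2 or 3 or any single cerulein library, and was at 0.08 with library size alone. With that scaling P4hb, Pdia2, Pdia6, Creld2 and Erp29 also lost their calls, at -0.17, -0.38, -0.19, -0.37 and -0.27.

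Txndc5, a disulfide isomerase with thioredoxin domains, was at 91.4, 101 and 110 CPM in saline and 136, 136 and 147 CPM in cerulein and rose by 0.47 ± 0.15 (adjusted p = 0.0169, edgeR). It lost its call without cerulein replicate 3 (0.45) and with upper-quartile factors (0.27), and 18.3% of its exonic bases are shared with the spans of Bmp6 and Gm31834. Pdia5, at 4.33 to 6.69 CPM the scarcest of these genes, and Dnajc10, the J-domain reductase that breaks disulfides of ERAD substrates, did not pass, with log2 fold changes of 0.32 ± 0.27 and -0.19 ± 0.16. The proline isomerases fell. Ppib, cyclophilin B, was at 135, 193 and 241 CPM in saline and 39.8, 47.7 and 44.7 CPM in cerulein and fell by 2.10 ± 0.21 (adjusted p = 2.62e-06, edgeR), and 25.0% of its exonic bases are shared with the span of Snx22. Fkbp2 was at 29.9, 37.2 and 60.2 CPM in saline and 13.7, 23.3 and 16.2 CPM in cerulein and fell by 1.24 ± 0.28. Fkbp11 fell by 0.98 ± 0.29 and lost its call without saline replicate 2, at -0.98, and with library size alone, as did Fkbp2 with the latter. The count ratio of Txndc5 to Ppib was 0.678, 0.520 and 0.457 in the saline libraries and 3.41, 2.86 and 3.29 in the cerulein libraries.

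The largest change of any member was in Sel1l (chr12:91806043-91849157), the scaffold that stabilises the ubiquitin ligase HRD1 in the ER membrane. It was at 1599, 1926 and 1846 CPM in saline and 105, 126 and 158 CPM in cerulein, a 13.8-fold lower fitted level and a log2 fold change of -3.79 ± 0.23 (adjusted p = 4.08e-08, edgeR). The call held under all 15 alternatives, with log2 fold changes between -3.99 and -3.20. Syvn1, which encodes HRD1 itself, was at 86.0, 126 and 107 CPM in saline and 115, 119 and 134 CPM in cerulein, with overlapping groups and a log2 fold change of 0.20 ± 0.17 (adjusted p = 0.329, edgeR). The count ratio of Sel1l to Syvn1 was 18.6, 15.2 and 17.2 in the saline libraries and 0.913, 1.06 and 1.18 in the cerulein libraries, so that the transcript of the scaffold was 17.0 ± 1.68 (SD, n = 3) times as frequently counted as that of the ligase in saline and 1.05 ± 0.132 times in cerulein.

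Herpud1, an ER membrane protein that assembles ERAD components and is strongly induced by ER stress in many cells, was at 453, 383 and 392 CPM in saline and 281, 254 and 300 CPM in cerulein and fell by 0.55 ± 0.17 (adjusted p = 0.0140, edgeR). Its groups did not overlap, but its log2 fold change was 0.0038 with library size alone and -0.48 without cerulein replicate 2, neither past the threshold. The lectins that select glycoproteins for degradation were lower. Os9 was at 259, 330 and 355 CPM in saline and 95.0, 99.3 and 106 CPM in cerulein and fell by 1.65 ± 0.18. Erlec1 was at 34.9, 29.7 and 39.9 CPM in saline and 8.64, 9.24 and 7.32 CPM in cerulein and fell by 2.05 ± 0.19. Both were well separated between the groups.

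The EDEM genes trim mannose from misfolded glycoproteins and the derlins form part of the channel through which they leave the ER. Edem2, which makes the first cut, was at 260, 386 and 385 CPM in saline and 64.6, 76.9 and 66.2 CPM in cerulein and fell by 2.31 ± 0.20. Edem1 fell by 1.10 ± 0.19, from 535 ± 92.6 to 250 ± 29.7 CPM (SD, n = 3). Edem3 fell by 0.54 ± 0.21 and stood at 190 CPM in cerulein replicate 3, inside the saline range, against 108 and 113 CPM in the other cerulein libraries. It lost its call without saline replicate 2 or 3 or without cerulein replicate 1 or 2 and with the filter on CPM, and was at 0.04 with library size alone. Without cerulein replicate 3 it was at -0.83. Derl3, the derlin of secretory tissues, was at 84.6, 143 and 159 CPM in saline and 23.0, 25.3 and 27.0 CPM in cerulein and fell by 2.36 ± 0.22, Derl2 fell by 0.86 ± 0.18 but lost its call with library size alone, and Derl1 had a log2 fold change of 0.03 ± 0.14. The count ratio of Derl3 to Derl1 was 1.28, 1.85 and 2.11 in the saline libraries and 0.336, 0.331 and 0.346 in the cerulein libraries. That of Edem2 to Edem1 was 0.602, 0.636 and 0.677 in the saline libraries and 0.290, 0.314 and 0.235 in the cerulein libraries.

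The steps on the cytosolic side gave a mixed picture. Ube2j1, the membrane-anchored ubiquitin-conjugating enzyme of ERAD, was at 88.8, 107 and 92.6 CPM in saline and 130, 147 and 138 CPM in cerulein and rose by 0.53 ± 0.15 (adjusted p = 0.0100, edgeR), the one rise in this group of 15. It lost its call without saline replicate 3 (0.48) and with upper-quartile factors (0.33). Vcp, the ATPase that pulls substrates out of the membrane, was at 38.5, 49.3 and 44.0 CPM in saline and 53.3, 57.2 and 58.7 CPM in cerulein. All cerulein libraries lay above the saline libraries, but the log2 fold change of 0.36 ± 0.15 missed the threshold (adjusted p = 0.0527, edgeR) and passed it without saline replicate 2 (0.46), with library size alone (0.95), with no filter and with the filter on CPM. Vimp, a selenoprotein that brings Vcp to the ER membrane, fell by 1.54 ± 0.21, from 74.0 ± 19.3 to 25.4 ± 4.86 CPM (SD, n = 3). Ufm1, a ubiquitin-like protein attached to ribosomes at the ER, had a log2 fold change of -0.35 ± 0.18 and passed without saline replicate 1, at -0.55, and with upper-quartile factors.

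**Figure D4:**
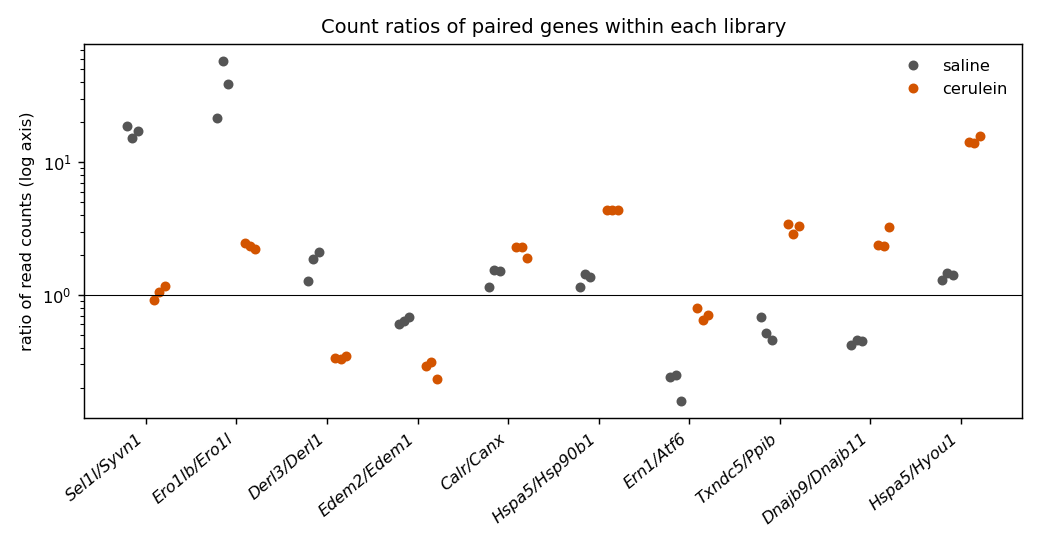
Ratio of the read counts of 2 genes within each library (y axis, log scale) for 10 pairs (x axis), with saline and cerulein libraries side by side. The Sel1l to Syvn1 ratio lies between 15.2 and 18.6 in saline and between 0.913 and 1.18 in cerulein. In none of the pairs shown do the groups overlap, but the pairs were chosen after seeing the data, so this separation is no finding.

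Other genes of the pathway were read from 3 lists. Of 18 further genes of unfolded protein response signalling tested, 7 (38.9%) rose and 6 (33.3%) fell, where the shares of all genes are 28.7% and 27.1%. Genes linked to the PERK and ATF4 branch were among those that rose, and whether PERK itself was active was not tested. Atf4, its translationally controlled transcription factor, was at 223, 216 and 232 CPM in saline and 807, 939 and 940 CPM in cerulein and rose by 2.0 ± 0.18. Ppp1r15a, the phosphatase subunit that reverses PERK's mark, was at 24.6, 28.2 and 35.5 CPM in saline and 164, 171 and 174 CPM in cerulein and rose by 2.54 ± 0.17. Chac1, an enzyme that degrades glutathione, was at 93.2, 27.3 and 80.5 CPM in saline and 1178, 1157 and 1056 CPM in cerulein and rose by 4.07 ± 0.41. By contrast Creb3l1, the closest relative of Creb3l2, was at 47.9, 54.1 and 60.4 CPM in saline and 8.05, 6.55 and 9.47 CPM in cerulein and fell by 2.75 ± 0.19. Crebrf and Bhlha15, the latter an acinar transcription factor also known as MIST1, fell with log2 fold changes of -1.42 ± 0.17 and -1.36 ± 0.20. Ddit3, which encodes CHOP and is named here after its values were seen, was at 13.4, 6.98 and 11.8 CPM in saline and 18.1, 13.3 and 12.0 CPM in cerulein, with overlapping groups (0.41 ± 0.26).

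Of 33 other ER folding genes tested, 2 (6.06%) rose and 18 (54.5%) fell. Erp27, a non-catalytic disulfide isomerase homologue, was at 365, 477 and 564 CPM in saline and 82.3, 109 and 99.6 CPM in cerulein and fell by 2.27 ± 0.21. Lman1, a cargo receptor for glycoproteins leaving the ER, and Uggt1, the folding sensor of the calnexin cycle, also fell, with log2 fold changes of -1.46 ± 0.16 and -1.19 ± 0.15. Cnpy2, the peroxiredoxin Prdx4 and Vkorc1 fell as well, with -2.09 ± 0.23, -2.004 ± 0.24 and -1.71 ± 0.24. Of 36 other ERAD and ubiquitin-like genes tested, 7 (19.4%) rose and 11 (30.6%) fell, so the share that fell was near the 27.1% of all genes. Svip, an inhibitor of ERAD that binds Vcp, was at 21.4, 23.9 and 30.3 CPM in saline and 4.62, 2.93 and 3.91 CPM in cerulein and fell by 2.71 ± 0.23. Ufl1, Ufsp2, Ubac2 and the ubiquitin ligase Rnf5 fell, with log2 fold changes of -2.18 ± 0.19, -1.81 ± 0.22, -1.85 ± 0.23 and -1.71 ± 0.22. Ube2g2, a soluble ubiquitin-conjugating enzyme of ERAD, was at 36.6, 52.9 and 42.7 CPM in saline and 92.9, 110 and 106 CPM in cerulein and rose by 1.23 ± 0.17. Across all 3 lists 35 of 87 genes fell and 16 rose, with a median log2 fold change of -0.32. With library size alone 21 (24.1%) fell and 30 (34.5%) rose, where all genes gave 11.6% and 41.6%.

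**Figure D5:**
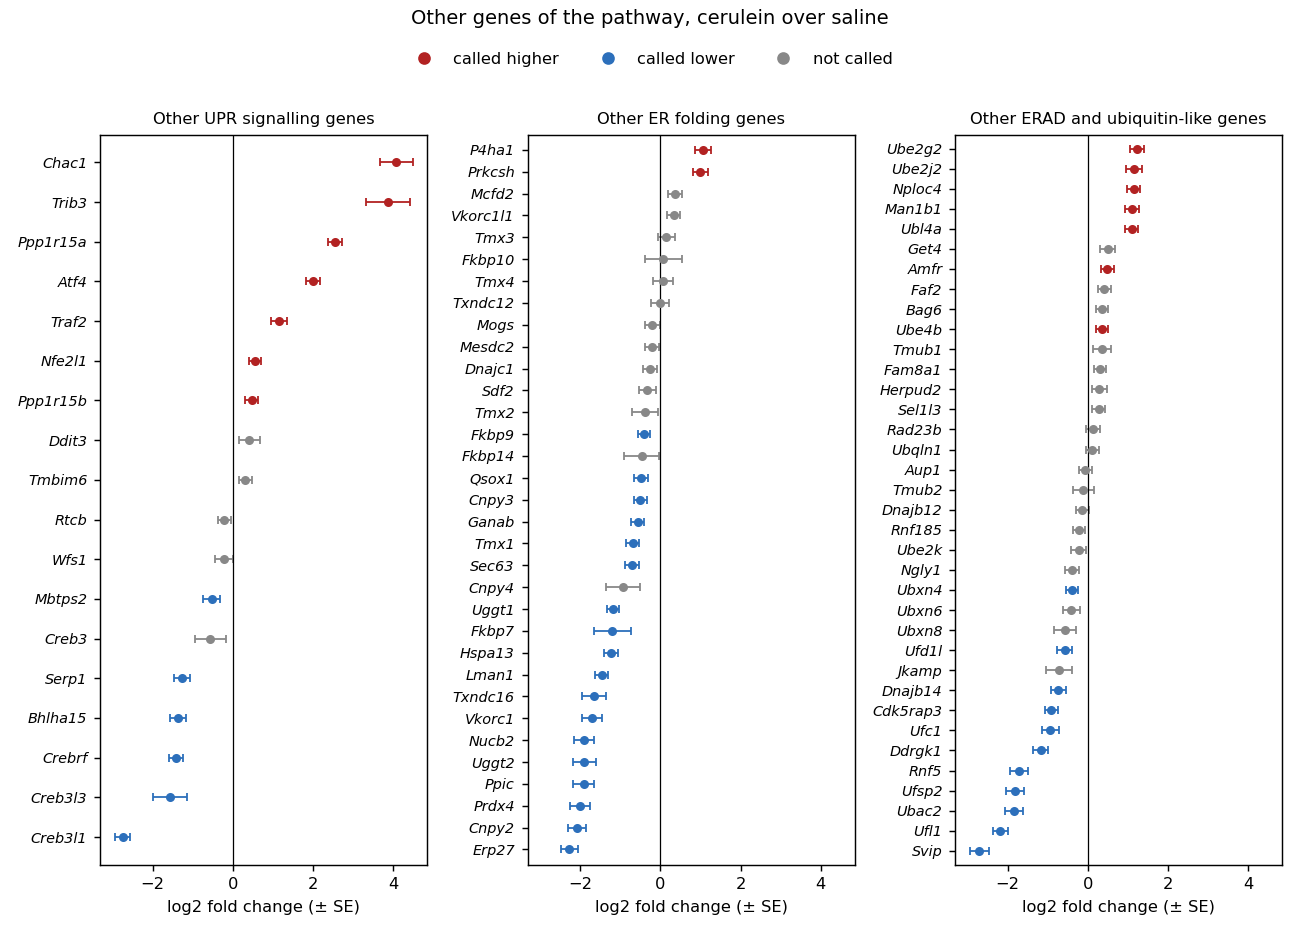
Log2 fold change with SE (x axis, cerulein over saline) of the other pathway genes tested (y axis) in 3 lists, coloured by the edgeR call. Chac1 stands highest at 4.07 and Creb3l1 lowest at -2.75 among the signalling genes, and most of the called folding genes lie left of 0.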

How the data were processed

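The deposited table holds raw counts of reads for each gene, as the authors made them, with a column for each of the 6 libraries. Per the submitters' processing notes, Trimmomatic, STAR, HTSeq and the mm10 build were used, with no versions or settings, and the sources used here do not name the annotation or the strand setting of the counting. Libraries were made with a kit that selects polyadenylated RNA and marks the strand, per the labels' protocols. The deposited counts were used unchanged, and total counts were 7194125, 6184013, 5335117 in saline and 6501212, 7610775, 6307887 in cerulein replicates 1 to 3.

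Genes were filtered with filterByExpr (minimum count 10, minimum total 15), scaled by TMM and tested with edgeR 4.0.16 in R 4.3.3 (quasi-likelihood F test, robust, two-sided), on all 12441 genes that passed, with Benjamini-Hochberg adjustment over them. The fit had no block for replicate number. Standard errors come from the F statistic. The procedure was tested on simulated data. Alternatives used other scalings, DESeq2 1.42.0, limma-voom 3.58.1, other filters, a replicate block and each library left out. The members, role groups and lists were chosen with earlier results of these data known. Library values are given for all sensors, for the 5 called members of each other role with the largest changes, for members called against their role's majority and for 9 textbook members. Of each further list up to 6 called genes with the smallest p are named. Gene pairs for ratios were chosen after seeing the data. Positions, matched by symbol for 47 members and by older symbol for 3, and promoter windows are from RefSeq (GRCm38.p6, the assembly of mm10). The spans of 16 members overlap that of a different gene with a row, and reads there may have been left uncounted. For 40 members no exonic base lies in such an overlap. Spans include introns and were compared on either strand, so fewer reads may be affected than the shared bases imply. Planned protein motifs were not analysed here, and 1 gene of the further lists is not reported here.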

Additional observations from a re-analysis of the deposited data

How the results depend on the processing

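Of 37 members called, 20 kept direction and call under all 15 alternatives, and 1 of the 13 others stayed uncalled in all. Of 750 values over members and alternatives, 32 lost a call in the same direction, 20 gained one, 3 turned the sign of a called member, and 695 stayed called or uncalled, 23 of them uncalled values that changed sign. With upper-quartile factors, which shift the median of all genes by -0.20, 23.3% of all genes were called higher and 33.7% lower. There 4 members were higher, and 5 sensors and transcription factors lower, 1 oxidative folding gene higher and 0 ERAD genes higher. With library size alone all genes had a median of 0.56, with 41.6% called higher and 11.6% lower. There 13 members were higher and 17 lower with a median of -0.23, with 2 higher and 0 lower among sensors, 5 lower among oxidative folding genes, 4 higher among ERAD genes, and 30 higher and 21 lower among the other pathway genes. Signs of values called in either fit changed there for Herpud1 (0.00379), Pdia3 (0.0819), Edem3 (0.0442), Mbtps2 (0.0201), Ganab (0.000864), Qsox1 (0.111), Fkbp9 (0.174), Cnpy3 (0.0709), Aup1 (0.515), Ubxn4 (0.196), and those of 7 members uncalled in both fits also turned positive (0.13 to 0.39). With no filter and with the filter on CPM, 2 ERAD genes were higher each, where 19.9% and 28.0% of all genes were. Leaving out 1 library at a time gave 4 to 8 members higher and 27 to 33 lower. The fewest higher came without cerulein replicate 3. In these fits 1 to 3 chaperones, 1 to 2 oxidative folding genes and 0 to 2 ERAD genes were higher. Of all genes 24.2% to 29.2% were called higher and 22.8% to 28.1% lower. Deviations of same-numbered samples correlated at 0.19, 0.22 and -0.15, and those of differently numbered samples at -0.29 to 0.088. With 3 samples in a group these values cannot decide whether the replicate numbers pair the samples. A fit with a replicate block gave 7 members higher and 30 lower, with no change in a member's call. An ERSE with 8 or 10 bases between its ends was found for no further member.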

Other observations

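UFM1 is a ubiquitin-like protein that is attached to ribosomes docked at the ER by its own set of enzymes. Of this system 5 further genes are described here, grouped after their values were seen, and each fell. Ufl1, the ligase, was at 44.2, 52.0 and 57.9 CPM in saline and 9.23, 11.5 and 13.1 CPM in cerulein, and its adaptor Ddrgk1 at 33.5, 43.0 and 44.7 CPM in saline and 14.8, 20.4 and 18.3 CPM in cerulein. Ufc1, the conjugating enzyme, was at 26.1, 25.2 and 41.9 CPM in saline and 15.3, 19.2 and 13.9 CPM in cerulein. Ufsp2, the protease that removes UFM1, was at 28.4, 21.6 and 29.3 CPM in saline and 6.75, 9.59 and 6.19 CPM in cerulein, and the adaptor Cdk5rap3 at 34.1, 45.1 and 40.9 CPM in saline and 22.1, 22.5 and 18.9 CPM in cerulein. The groups did not overlap for any of the 5, and the log2 fold changes ran from -2.18 for Ufl1 to -0.91 for Cdk5rap3. These 5 were lower under each of the 15 alternatives, and Ufc1 and Cdk5rap3 lost their calls with library size alone. Ufm1 itself did not pass, at -0.35 ± 0.18.

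Of the other ERAD genes that rose, 3 more are given here, chosen after their values were seen. The conjugating enzyme Ube2j2 was at 23.0, 34.9 and 22.4 CPM in saline and 47.0, 70.3 and 60.7 CPM in cerulein and rose by 1.15 ± 0.21. Nploc4, a cofactor that carries Vcp to ubiquitinated substrates, was at 42.0, 57.7 and 45.8 CPM in saline and 89.4, 116 and 114 CPM in cerulein and rose by 1.14 ± 0.17, whereas its partner Ufd1l had a log2 fold change of -0.58 ± 0.19, which passed the threshold but not under 5 of the 15 alternatives. The mannosidase Man1b1 was at 31.0, 46.2 and 33.2 CPM in saline and 77.8, 76.8 and 81.2 CPM in cerulein and rose by 1.10 ± 0.17. Serp1, a stress-associated protein of the translocon, was at 769, 973 and 1096 CPM in saline and 347, 376 and 448 CPM in cerulein and fell by 1.28 ± 0.20.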
